A study of Homo sapiens with 8 samples.

Results

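The genes described here act in homologous recombination and in the Fanconi anaemia pathway, which repair DNA double-strand breaks and crosslinks between the strands. They were given as a list of 46 gene symbols, and a transcript cluster (the probes that report 1 gene) was found for 39 of them among 17709 named clusters. Each of the 39 had 1 cluster. The other 7, BRCA2, FANCA, FANCD2, RBBP8, MDC1, RAD54B and ATRIP, were not analysed here. RNA came from 8 tumours formed in nude mice by SK-OV-3, an established human ovarian cancer line. In 4 tumours the implanted cells carried pIND_BORA, a vector that overexpresses BORA, and in the other 4 they carried the empty vector pIND_EV. All 8 tumours share the host strain and the parent line, and the labels give no dose, time or animal age. They also do not say whether each tumour came from its own animal or how many transfected pools were used, so each p-value rests on the spread among these samples alone, and that spread may be technical.

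Homologous recombination copies the lost stretch of a broken chromosome from the sister chromatid, and is used mainly in S and G2 phase. The ends are recognised and trimmed to single strands, checkpoint kinases halt the cycle, BRCA1, PALB2 and BRCA2 prepare the single strand for invasion of the sister chromatid, and nucleases resolve the joined molecules. The Fanconi core complex marks the FANCD2-FANCI pair at a stalled fork so that the crosslink can be cut out. Loss of the pathway is common in high-grade serous ovarian cancer, where it is linked to sensitivity to platinum and PARP inhibitors. BORA itself binds PLK1 and helps Aurora A to switch it on before mitosis.

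Values are log2 signals, with the log base read from their range, so a difference of 1 is a doubling on that reading. Arrays resembled each other in their medians (6.96 to 7.07 over the named clusters), and precision is limited by how many arrays there are. The BORA cluster was at 12.57, 12.55, 12.91 and 13.00 in the BORA tumours and at 6.16, 6.15, 6.89 and 7.32 in the EV tumours, a log2 difference of 6.13 (SE 0.27, limma adjusted p = 2.38e-05; two-sided exact permutation p = 0.0286, the smallest that 70 splits allow). EV replicate 1 stood apart: it correlated with the other arrays at 0.943 to 0.954 and was the highest of all arrays in 10 of 10 measured markers of squamous epithelium. The log2 of their summed signal was 18.53 there, against 13.13 to 14.02 in EV replicates 2 to 4 and 12.87 to 15.03 in BORA tumours, and 9 of the 10 exceeded the negative controls there against 1 or 2 elsewhere. Of 11 markers of ovarian carcinoma 6 were lower there than in every other array and 1, KRT19, was higher, while the log2 of their summed signal, 18.07, lay inside the range of the other arrays (17.09 to 18.60). Human probes may also read RNA of the mouse host in part. Each comparison is given over 8 arrays and over the 7 without EV replicate 1.

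No member passed the test in either comparison: 0 of 39 had a limma adjusted p under 0.05 over 8 arrays and 0 of 39 over 7, where the shares of all clusters called were 0.102% and 0.514%. At an unadjusted p under 0.05 over 8 arrays there were 3, MUS81, FANCB and CHEK2, all with higher values in BORA tumours, which is 7.69% of the members against 14.5% of all clusters (7.37% higher and 7.17% lower). Over 7 arrays there were 5, the same 3 higher and BLM and BRCA1 lower, which is 12.8% of the members against 15.3% of all clusters (7.70% higher and 7.62% lower). The groups did not overlap for 2 members over 8 arrays, both higher in BORA tumours, where 9.36% of all clusters had no overlap (4.45% higher, 4.91% lower). Over 7 arrays this held for 3 members, 2 higher and 1 lower, against 14.3% of all clusters (6.66% higher, 7.68% lower). Taken over both directions, these shares of the members were below those of all clusters.

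The median log2 difference of the 39 members was 0.052 over 8 arrays, with 22 above 0 and 17 below, beside a median of -0.026 over all clusters. Over 7 arrays it was -0.13, with 11 above 0 and 28 below, beside -0.029 over all clusters. Of all clusters 46.6% lay above 0 over 8 arrays and 46.1% over 7. Among features above the negative controls in both groups the members' median was 0.019 over 8 arrays and -0.11 over 7, below the 0.10 and 0.080 of all such clusters. The sign of the median over all 39 members and 8 arrays depended on the processing. The members' median was -0.0015 after quantile normalization and -0.0016 after centring each array on its median, beside -0.016 and -0.080 over all clusters. With array quality weights the members were at -0.074, beside -0.024 over all clusters. The 11 members whose sign turned when EV replicate 1 was left out all went from above 0 to below it. The 95% interval lay between -1 and 1 for 29 of 39 members over 8 arrays and 36 of 39 over 7. For these members a change of 2-fold lay outside the interval of the difference. Over all clusters the shares were 80.3% and 87.4%. The interval lay between -0.5 and 0.5 for 2 and 3 members.

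**Figure D1:**
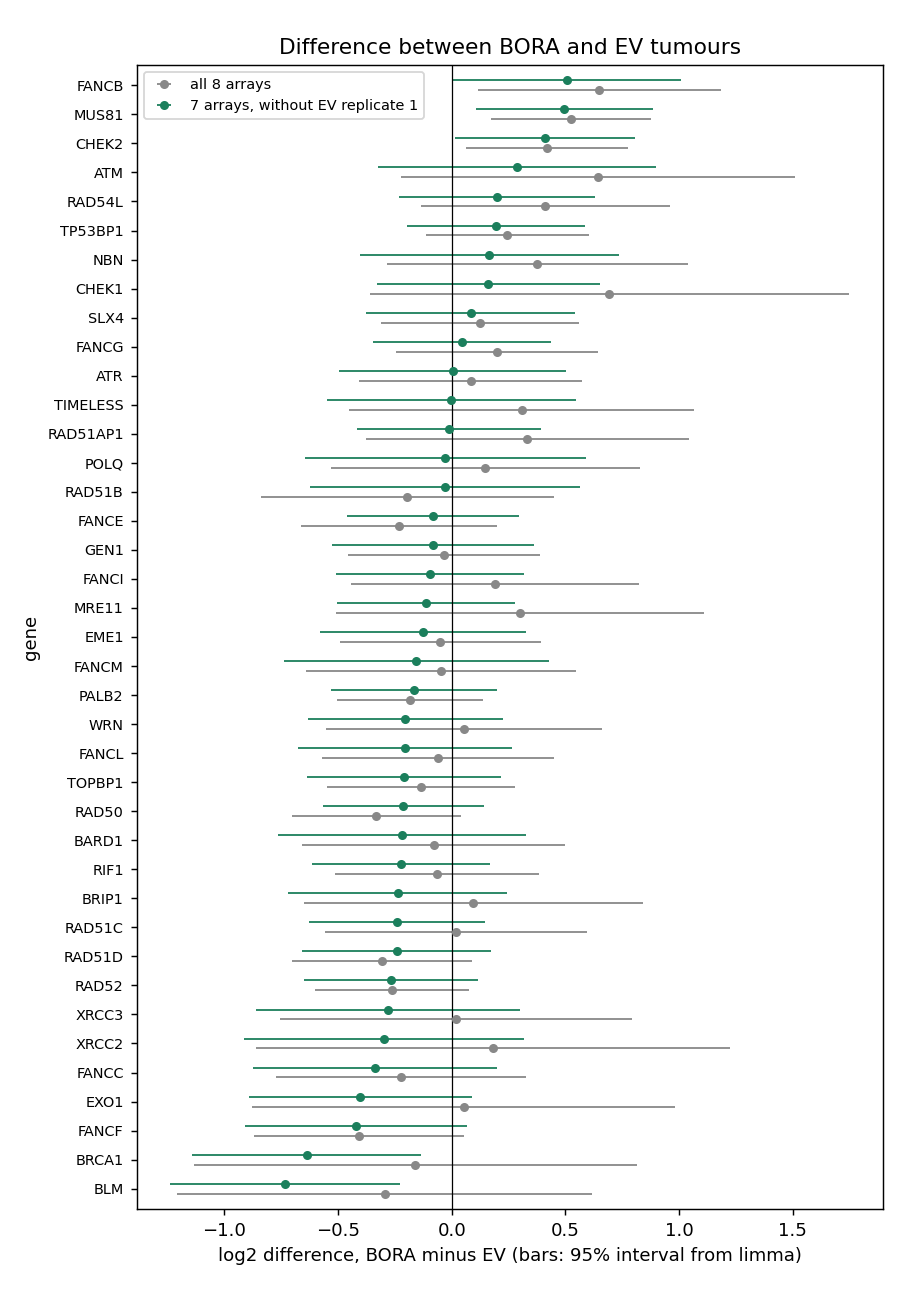
Log2 difference between BORA and EV tumours (x axis) for the 39 measured members (y axis), with the 95% interval from limma, over all 8 arrays in grey and over the 7 arrays without EV replicate 1 in green. The intervals of MUS81, FANCB and CHEK2 lie above 0 in both, and those of BLM and BRCA1 lie below 0 over 7 arrays, although none passed after adjustment over all clusters.

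Many members were dim. As a background level the 95th percentile of 612 negative control probes was taken in each array and averaged per group (7.82 for BORA, 8.002 for EV). Over 8 arrays means were above it in both groups for 17 members, in BORA tumours alone for WRN, and in neither for 21. Over all clusters 38.7% exceeded it in both. Without EV replicate 1 the EV level was 7.92. The mean of EV replicates 2 to 4 was above that for WRN (8.25), which then exceeded background in both groups. It was also above for EXO1 (8.12) and BRCA1 (8.32), whose BORA means were not. The 17 were RAD50, NBN, MRE11, ATM, CHEK1, TOPBP1, TIMELESS, TP53BP1, RIF1, PALB2, RAD51C, RAD54L, FANCC, FANCF, EME1, SLX4 and GEN1. In single arrays 10 members exceeded it in all 8, 11 in 0 and 18 in some. ATR, CHEK2, BARD1, FANCB, FANCE, FANCG, FANCM, RAD51B, RAD51D, XRCC3 and RAD51AP1 were the 11 that never did, and a difference at such a level has an uncertain size.

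**Figure D2:**
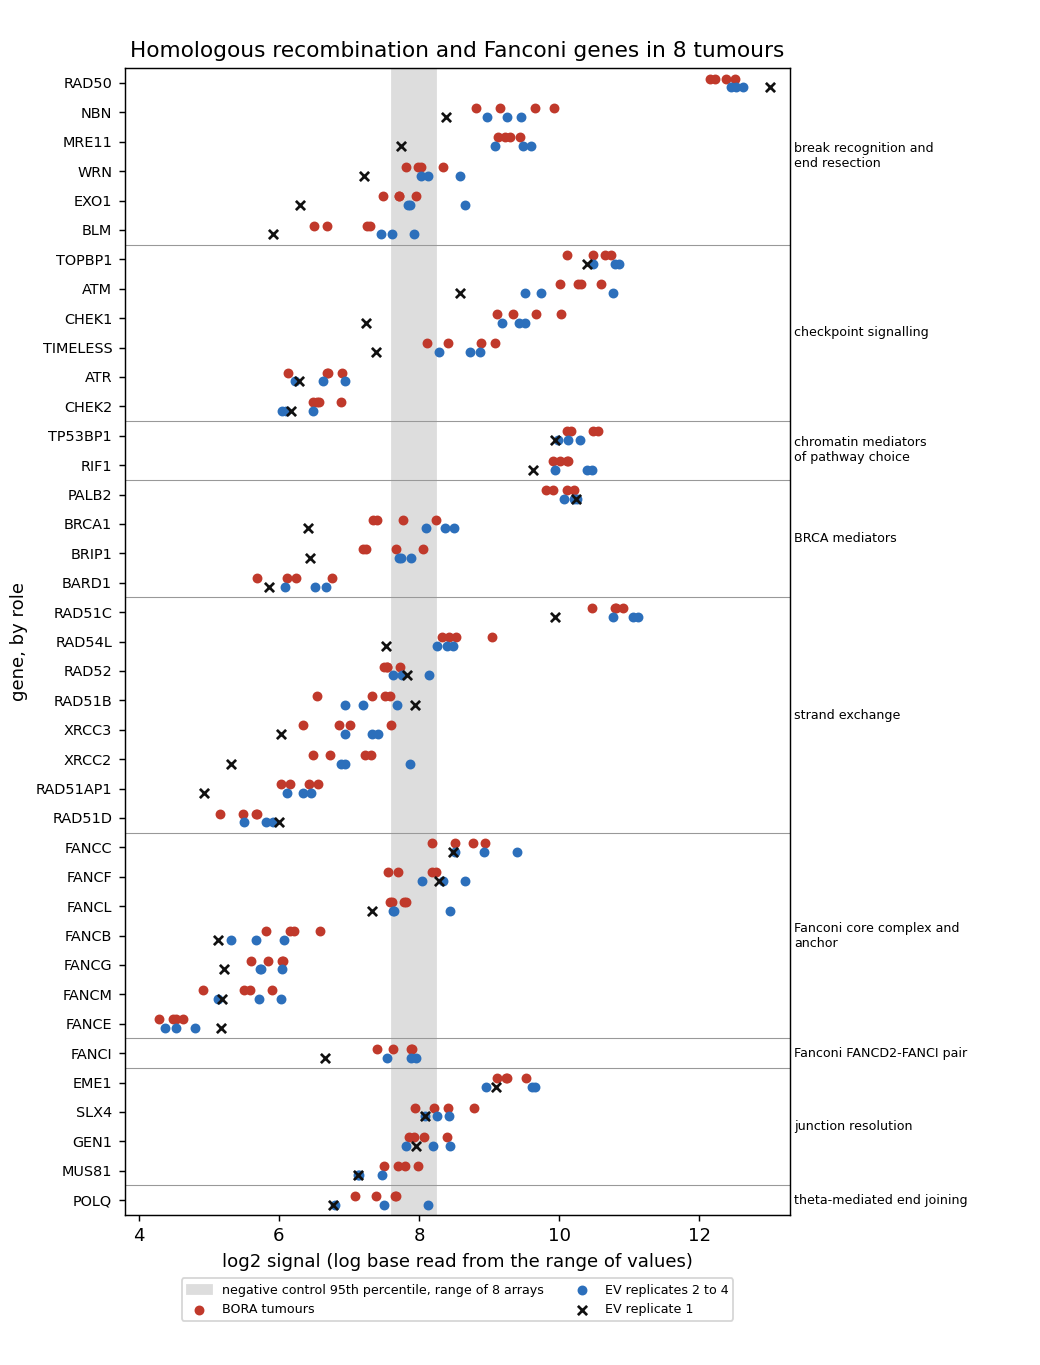
Log2 signal (x axis) of the 39 measured members (y axis, by role) in each tumour: red dots, BORA; blue dots, EV replicates 2 to 4; crosses, EV replicate 1. The grey band spans the negative control percentiles of the 8 arrays, 7.62 to 8.24, and the crosses lie left of all other points for 23 members and right of them for 4.

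Among the nucleases that resolve joined molecules, MUS81, the catalytic subunit that works with EME1, had the smallest p of the members over 8 arrays. It was at 7.80, 7.70, 7.50 and 7.98 in BORA tumours and at 7.13, 7.13, 7.15 and 7.47 in EV replicates 1 to 4. Every BORA tumour lay above every EV tumour, by a narrow margin between BORA replicate 3 and EV replicate 4. The log2 difference was 0.53 over 8 arrays (SE 0.16, 95% interval 0.17 to 0.88, limma adjusted p = 0.220) and 0.49 over 7 (SE 0.18, adjusted p = 0.227). MUS81 exceeded the control percentile of its own array in 1 of 8 arrays, BORA replicate 2, and its mean was below it in both groups. Its partner EME1, and SLX4, a scaffold of several nucleases, were well measured and had log2 differences of -0.051 and 0.13 over 8 arrays and of -0.13 and 0.083 over 7. GEN1, a resolvase that cuts Holliday junctions, was at -0.034 and -0.083.

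MUS81 lies on chromosome 11, as do MRE11, ATM, CHEK1 and FANCF. Of the genes from MUS81 to the end of that chromosome in the order of the RefSeq gene table, 167 exceeded the negative controls in both groups, and their median log2 difference was 0.46 over 8 arrays and 0.22 over 7. The 212 such genes before MUS81 had medians of 0.24 and 0.093, and the 6482 on all other chromosomes had 0.096 and 0.077. The part of this regional difference in the values of MUS81 was not tested.

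Checkpoint kinases relay the damage signal. CHEK2, a kinase downstream of ATM, was at 6.54, 6.49, 6.88 and 6.57 in BORA tumours and at 6.18, 6.05, 6.09 and 6.49 in EV tumours. The groups did not overlap, although BORA replicate 2 and EV replicate 4 are equal at 2 decimals, and all 8 values lay below the negative control percentile. The log2 difference was 0.42 over 8 arrays (SE 0.16, limma adjusted p = 0.290) and 0.41 over 7 (SE 0.18, adjusted p = 0.311). CHEK1, the kinase downstream of ATR, was at 10.03, 9.34, 9.12 and 9.67 in BORA tumours and at 7.25, 9.18, 9.52 and 9.43 in EV tumours. EV replicate 1 was the low sample, and EV replicates 2 to 4 lay inside the BORA range. The difference was 0.69 over 8 arrays (SE 0.47, adjusted p = 0.519) and 0.16 over 7 (SE 0.22, 95% interval -0.33 to 0.65).

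ATM, the kinase that responds first to double-strand breaks, was at 10.27, 10.31, 10.01 and 10.60 in BORA tumours and at 8.59, 9.74, 9.52 and 10.77 in EV tumours. The EV tumours spread over more than 2 log2 units and held both the lowest and the highest value. The log2 difference was 0.64 over 8 arrays (SE 0.39, limma adjusted p = 0.469) and 0.29 over 7 (SE 0.28, adjusted p = 0.665). EV replicates 2 and 3 also lay below every BORA tumour. When single arrays were left out of the 8, the difference ran from 0.29 to 1.02. The largest was without EV replicate 4, which held the highest value (SE 0.28, limma adjusted p = 0.211). That array was singled out after its value was seen. ATR, which responds to single-stranded DNA at stalled forks, was at 6.13 to 6.90 in BORA and 6.23 to 6.94 in EV tumours, a difference of 0.083 over 8 arrays and below background throughout. TOPBP1, the activator of ATR, was at -0.13 over 8 arrays and -0.21 over 7. TIMELESS, a fork protection factor that supports CHEK1 activation, was at 0.31 over 8 arrays and at -0.0011 over 7.

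Of the proteins that recognise and trim the ends, BLM had the smallest p over 7 arrays. This helicase unwinds DNA during resection and dissolves double Holliday junctions. It was at 7.29, 7.25, 6.69 and 6.49 in BORA tumours and at 5.91, 7.61, 7.45 and 7.93 in EV replicates 1 to 4. BORA tumours lay below EV replicates 2 to 4 without overlap, while EV replicate 1 lay below them all. The log2 difference was -0.29 over 8 arrays (SE 0.41, limma adjusted p = 0.759) and -0.73 over 7 (SE 0.23, 95% interval -1.24 to -0.23, adjusted p = 0.173). BLM was below the mean control percentile in both groups.

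EXO1, a nuclease of long-range resection, was at 7.49, 7.96, 7.71 and 7.71 in BORA tumours and at 6.30, 7.87, 7.84 and 8.66 in EV tumours. The groups overlapped, and the EV tumours held both extremes. Its difference was 0.052 over 8 arrays and -0.40 over 7 (SE 0.22, limma adjusted p = 0.424). The complex of MRE11, RAD50 and NBN tethers and trims the ends, and its 3 subunits exceeded background in both groups. MRE11 was at 9.30, 9.13, 9.23 and 9.44 in BORA tumours and at 7.74, 9.48, 9.09 and 9.59 in EV tumours, RAD50 at 12.51, 12.38, 12.16 and 12.22 and at 13.00, 12.62, 12.52 and 12.45. EV replicate 1 was the lowest array for MRE11 and the highest for RAD50. The differences over 8 and 7 arrays were 0.30 and -0.11 for MRE11 (SE 0.36 and 0.18), -0.33 and -0.21 for RAD50 (SE 0.17 and 0.16), and 0.38 and 0.17 for NBN. WRN, a helicase with an exonuclease domain, was at 0.055 and -0.20.

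BRCA1, which promotes resection and binds PALB2, was at 7.34, 8.24, 7.39 and 7.77 in BORA tumours and at 6.41, 8.10, 8.50 and 8.37 in EV tumours. EV replicate 1 held the lowest value, while EV replicates 2 to 4 lay above 3 of the 4 BORA tumours. The log2 difference was -0.16 over 8 arrays (SE 0.43, limma adjusted p = 0.884) and -0.64 over 7 (SE 0.23, 95% interval -1.14 to -0.13, adjusted p = 0.228). The BORA mean of 7.68 was below the control percentile and the mean of EV replicates 2 to 4, 8.32, above it. PALB2, the bridge between BRCA1 and BRCA2, was at 10.21, 9.81, 10.12 and 9.92 in BORA tumours and at 10.25, 10.25, 10.07 and 10.22 in EV tumours, close together and overlapping. Its difference was -0.18 over 8 arrays (SE 0.14) and -0.17 over 7 (SE 0.17), with an interval over 8 arrays of -0.50 to 0.14. BARD1, the ring-finger partner of BRCA1, was at -0.079 and -0.22, and the helicase BRIP1 at 0.095 and -0.24.

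**Figure D3:**
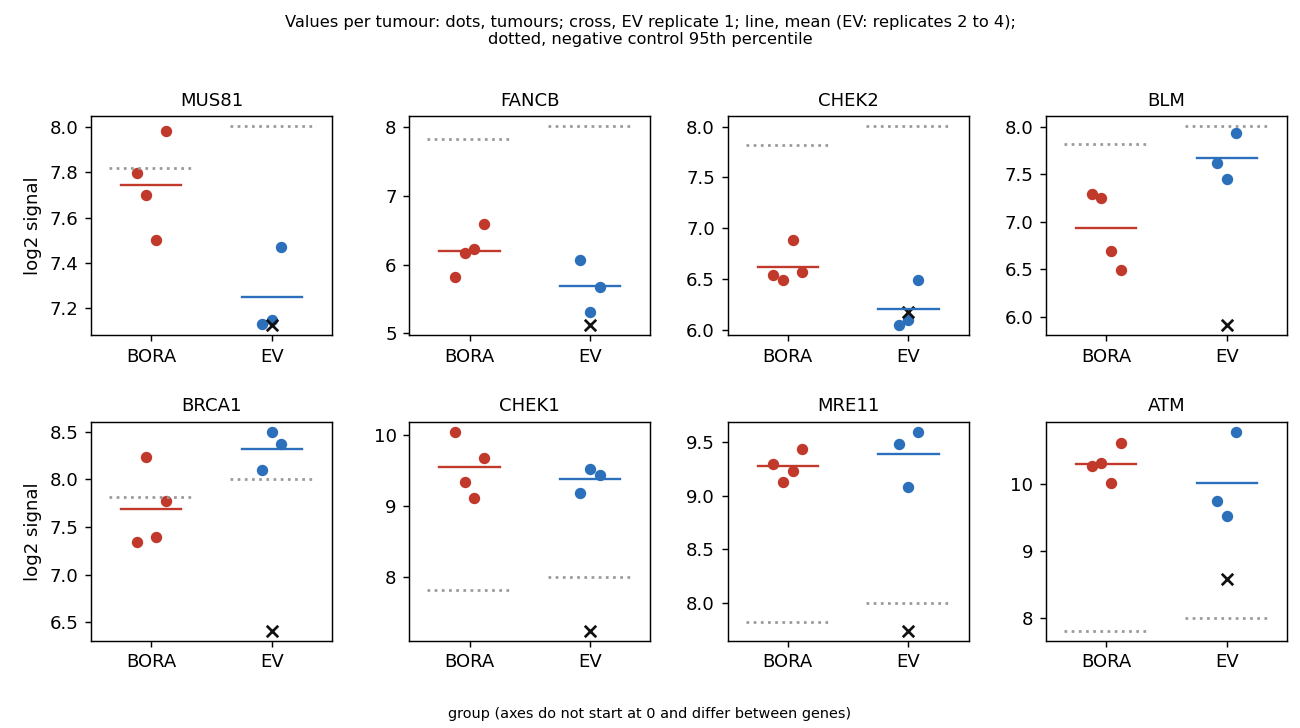
Log2 signal (y axis, a scale of its own for each gene, not starting at 0) of 8 members in each tumour by group (x axis). Solid lines are means, for EV over replicates 2 to 4, dotted lines the mean negative control percentile of each group, and the cross is EV replicate 1. The groups are separate for MUS81 and CHEK2, and for BLM when the cross is left out. The cross is the lowest point for every gene shown except CHEK2, narrowly so for MUS81.

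Of the 8 measured genes of strand exchange, 5 had differences above 0 over 8 arrays (range -0.31 to 0.41) and 1 over 7 (range -0.30 to 0.20). None passed (0 of 8 in limma, also 0 at an unadjusted p under 0.05 in either comparison). RAD51C, which belongs to 2 complexes that support strand exchange, was at 10.91, 10.79, 10.80 and 10.47 in BORA tumours and at 9.94, 10.77, 11.05 and 11.13 in EV tumours, with overlap. Its difference was 0.019 over 8 arrays and -0.24 over 7 (SE 0.18). RAD54L, a DNA translocase that helps strand invasion, was at 9.04, 8.53, 8.33 and 8.42 and at 7.53, 8.26, 8.48 and 8.40. BORA replicate 1 was its highest value and EV replicate 1 its lowest, and the difference was 0.41 over 8 arrays (SE 0.24, limma adjusted p = 0.464) and 0.20 over 7.

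The other 6 of these genes were below the control percentile in both groups. RAD51D, a partner of XRCC2, was at 5.16, 5.69, 5.48 and 5.67 in BORA tumours and at 6.002, 5.81, 5.92 and 5.50 in EV tumours, with differences of -0.31 and -0.24 (SE 0.18 and 0.19). RAD52, a mediator that anneals single strands, was at 7.73, 7.49, 7.54 and 7.54 and at 7.83, 7.76, 7.63 and 8.13, with differences of -0.26 and -0.27 (SE 0.15 and 0.17). Both had lower means in BORA tumours in both comparisons, with overlapping groups. XRCC2 was at 7.31, 7.23, 6.48 and 6.73 and at 5.31, 6.95, 6.89 and 7.88, with differences of 0.18 and -0.30. RAD51B, XRCC3 and RAD51AP1 lay between -0.19 and 0.33 over 8 arrays.

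In the Fanconi core complex FANCB had the largest difference. It was at 5.81, 6.16, 6.22 and 6.58 in BORA tumours and at 5.12, 6.07, 5.31 and 5.68 in EV tumours, where EV replicate 2 lay above the lowest BORA tumour. The difference was 0.65 over 8 arrays (SE 0.24, limma adjusted p = 0.282) and 0.51 over 7 (SE 0.23, adjusted p = 0.319), at levels below background in all arrays. FANCF, an adaptor of the core, was at 8.24, 7.71, 7.55 and 8.19 in BORA tumours and at 8.28, 8.34, 8.65 and 8.04 in EV tumours, with EV replicate 4 inside the BORA range. Its difference was -0.41 over 8 arrays (SE 0.21, adjusted p = 0.400) and -0.42 over 7 (SE 0.22, adjusted p = 0.403). FANCC, another subunit, was at 8.94, 8.78, 8.19 and 8.51 and at 8.48, 8.92, 9.40 and 8.51, with differences of -0.22 and -0.34 (SE 0.25 and 0.24).

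The remaining core subunits FANCE and FANCG, the ubiquitin ligase FANCL and the DNA translocase FANCM lay between -0.23 and 0.20 over 8 arrays and between -0.20 and 0.045 over 7. FANCI, which the core complex ubiquitinates together with FANCD2, was at 7.89, 7.89, 7.62 and 7.40 in BORA tumours and at 6.65, 7.88, 7.54 and 7.96 in EV tumours. Apart from EV replicate 1, which was lowest, the groups overlapped, with differences of 0.19 over 8 arrays (SE 0.28) and -0.096 over 7 (SE 0.19). Of the chromatin mediators of pathway choice 2 were measured. TP53BP1, which shields ends from resection, was at 10.17, 10.56, 10.11 and 10.48 and at 9.94, 10.12, 9.99 and 10.30, and its difference was 0.24 over 8 arrays (SE 0.16, limma adjusted p = 0.509) and 0.19 over 7. RIF1, its effector, was at -0.065 and -0.22. POLQ, the polymerase of an alternative end-joining route, was at 7.66, 7.38, 7.09 and 7.68 and at 6.77, 7.50, 8.13 and 6.81, with differences of 0.15 and -0.029 (SE 0.30 and 0.28) and wide spread among EV tumours.

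Many members had a low level in a single tumour, EV replicate 1. It lay below all 7 other arrays for 23 of the 39 members, 59.0%, where the share over all clusters was 22.2%, and above them for 4 (RAD50, RAD51B, RAD51D and FANCE) where the share was 20.6%. Among the 17 members above the negative controls in both groups it was lowest for 9, beside 33.9% of such clusters. The distance of EV replicate 1 from the median of EV replicates 2 to 4 had a median of -0.55 over the members and of -0.035 over all clusters. It was below -1 for 13 members, 33.3%, against 6.57% of all clusters. As 1 tumour shows this, it has no replicate and no test, and in bulk RNA fewer cells of a type and less RNA per cell cannot be told apart.

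The members farthest below were CHEK1 (-2.19), BRCA1 (-1.96), MRE11 (-1.74), BLM (-1.70) and XRCC2 (-1.63). EXO1 followed at -1.57, RAD51AP1 at -1.41, TIMELESS at -1.33, and XRCC3 and BRIP1 at -1.30 each. By role, the median distance was -1.24 for end recognition and resection, -0.99 for strand exchange, -0.97 for the BRCA mediators and -0.77 for checkpoint genes. It was -0.44 for the Fanconi core and -0.21 for the resolving nucleases. PALB2 (0.029), MUS81 (-0.022), FANCF (-0.054), RAD52 (0.074) and CHEK2 (0.081) were within 0.1 of the other EV tumours.

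Genes of proliferation and S phase were low in the same array. Of 26 measured, among them MKI67, PCNA, the MCM helicase subunits and RRM2, 25 lay below all other arrays in EV replicate 1, and their median distance was -1.69. Their median level was 7.84 there, against 9.56, 9.71 and 9.76 in EV replicates 2 to 4 and 9.36 to 9.99 in BORA tumours; 12 of the 26 exceeded the negative controls there against 19 to 22 elsewhere. The log2 of their summed signal was 14.22 there, while EV replicates 2 to 4 lay at 15.68 to 16.05 and BORA tumours at 15.33 to 16.16. Their part in the low levels of the members, and that of the squamous markers given above, was not tested. Of 54 other genes of recombination and the Fanconi pathway 23 (42.6%) were lowest in EV replicate 1, with a median distance of -0.31. They include UBE2T (-2.76), H2AX (-2.72) and CLSPN (-2.40), chosen after their values were seen, which lay farther below than any member. H2AX lies on chromosome 11, whose levels in this array are given below. Among other repair routes, non-homologous end joining had a median distance of 0.025 (11 genes, 3 below all other arrays and 4 above). The 3 below were XRCC4 (-1.03), PRKDC (-0.99) and XRCC5 (-0.92), all above the negative controls in both groups. The 4 above were APLF (1.23), NHEJ1 (1.10), LIG4 (1.05) and POLL (0.50), of which only POLL exceeded them. Median distances were -0.0055 for mismatch repair (5 genes, 0 below and 0 above) and -0.23 for nucleotide and base excision repair (20 genes, 7 below and 3 above). These differences between lists were not tested.

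**Figure D4:**
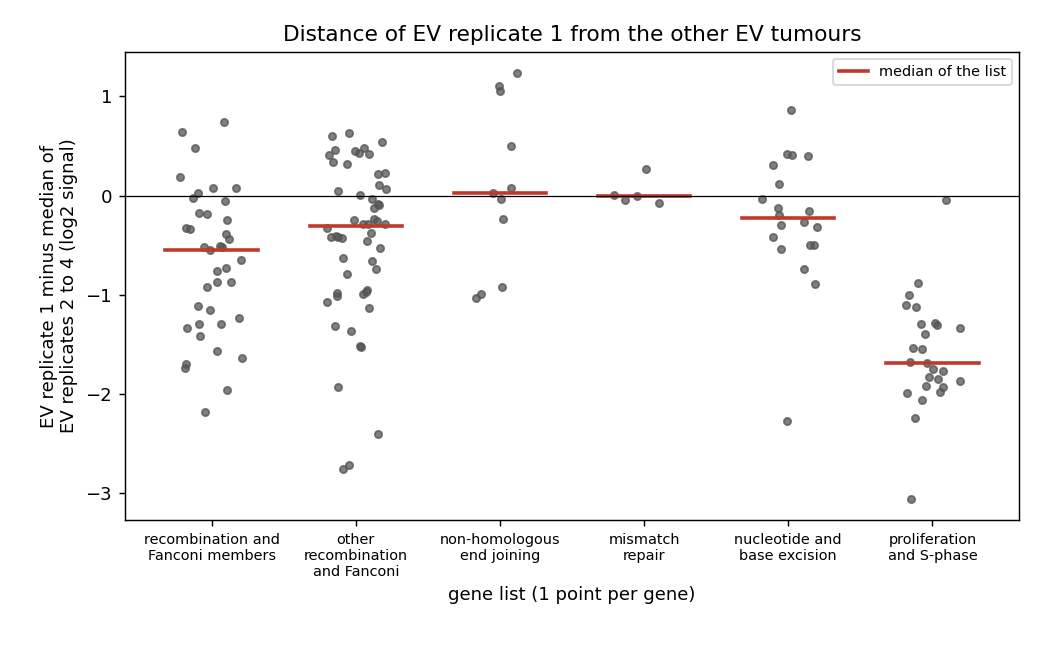
Log2 signal of EV replicate 1 minus the median of EV replicates 2 to 4 (y axis) for each gene of 6 lists (x axis), with the median of each list as a red line. The medians are -0.55 for the 39 members and -1.69 for proliferation and S-phase genes, and lie near 0 for end joining and mismatch repair. Single end-joining genes run from -1.03 to 1.23.

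Position differed among the members too. Of the 5 members on chromosome 11, CHEK1 (-2.19), MRE11 (-1.74) and ATM (-1.15) were far below in EV replicate 1. MUS81 (-0.022) and FANCF (-0.054) were close to the other EV tumours. Over that chromosome, genes above the negative controls had a median distance of -0.66 (379 genes) in EV replicate 1. Those from MUS81 to the end had one of -0.91 (167 genes, 79.6% of them lowest in this array). Over all other chromosomes the median was -0.073, with 31.9% lowest. Chromosome 11 had the lowest median of the 23 chromosomes compared, followed by 4 (-0.61). Without the 5 members on chromosome 11 the array was still lowest for 19 of 34, 55.9%, with a median distance of -0.54. The part of this chromosome in the values of CHEK1, MRE11, ATM and H2AX was not tested.

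The promoters of the 3 members farthest below in EV replicate 1 among those above background are shown so that these letters can be set beside their low level there: CHEK1 at chr11:125625979-125626228 on the plus strand, MRE11 at chr11:94493845-94494094 on the minus strand and TIMELESS at chr12:56449427-56449676 on the minus strand. They are the 250 bases before the transcript start in RefSeq (GRCh38.p14; the first of 3 starts for CHEK1), read 5′ to 3′ on the strand of the gene, with capitals for the words CCAAT and GGGCGG on either strand.
CHEK1: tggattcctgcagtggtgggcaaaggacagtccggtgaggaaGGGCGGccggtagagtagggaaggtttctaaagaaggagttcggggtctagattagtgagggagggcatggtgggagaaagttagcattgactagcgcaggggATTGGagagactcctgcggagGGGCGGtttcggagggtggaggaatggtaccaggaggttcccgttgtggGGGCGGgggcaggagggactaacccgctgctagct
MRE11: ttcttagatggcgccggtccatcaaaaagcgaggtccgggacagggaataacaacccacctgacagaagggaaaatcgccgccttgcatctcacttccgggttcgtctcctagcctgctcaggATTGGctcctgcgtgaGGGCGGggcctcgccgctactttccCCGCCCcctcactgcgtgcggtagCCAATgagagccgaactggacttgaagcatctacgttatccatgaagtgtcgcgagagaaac
TIMELESS: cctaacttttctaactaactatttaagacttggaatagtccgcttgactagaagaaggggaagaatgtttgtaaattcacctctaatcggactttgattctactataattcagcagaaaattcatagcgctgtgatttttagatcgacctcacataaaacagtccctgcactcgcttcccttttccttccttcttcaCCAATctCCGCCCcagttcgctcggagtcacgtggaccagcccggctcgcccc

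The 5 E2F words searched (TTTGGCGC, TTTCCCGC, TTTGGCGG, TTTCCCGG and TTTCGCGC) and the cell cycle homology word TTTGAA had 0 matches on either strand in these 3 windows. An E2F word was present in 3 of the 42 members with a promoter in the table (7.14%) and in 4.12% of 27305 first promoters, and TTTGAA in 14.3% and 13.6%. CCAAT and GGGCGG, bound by NF-Y and by Sp1 family factors in many promoters, were added after that search. CCAAT was present 1, 2 and 1 times and GGGCGG 3, 2 and 1 times in CHEK1, MRE11 and TIMELESS. Among first promoters, CCAAT was in 45.2% of the members and 33.0% of all, and GGGCGG in 71.4% and 42.3%. The 27305 first promoters were not matched to the members in base composition or expression, and these shares were not tested. A match is a description of letters and does not show binding.

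Members also varied together among the BORA tumours. BORA replicate 1 was the highest of the 4 for 23 of 39 members (59.0%, against 28.4% of all clusters) and BORA replicate 3 the lowest for 18 (46.2%, against 26%). BORA replicate 1 also had the highest proliferation median, 9.99, and BORA replicate 3 the lowest, 9.36, with BORA replicate 4 at 9.37. The log2 of the summed proliferation signal was highest in BORA replicate 1 (16.16) and lowest in BORA replicate 4 (15.33), with BORA replicate 3 at 15.48. Among EV replicates 2 to 4, replicate 4 was highest for 18 members (46.2%, against 36.2%). The spread within groups over 7 arrays was like that of all clusters, with a median SD of 0.29 for the members and 0.26 for all, and ran from 0.13 for RAD50 to 0.47 for POLQ.

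Further genes of recombination and the Fanconi pathway that are no members were examined for comparison. Of 59 listed, 54 were measured, and 0 passed in limma over 8 or 7 arrays; before adjustment, p under 0.05 was reached by 9 with higher values in BORA tumours over 8 arrays and by 3 over 7, and by 0 with lower values. That is 16.7% and 5.56% of the 54, beside 7.37% and 7.70% of all clusters with higher values and 14.5% and 15.3% in either direction. Their median log2 difference was 0.13 over 8 arrays and 0.10 over 7. Among those above the negative controls in both groups it was 0.12 and 0.087, close to the 0.10 and 0.080 of all such clusters. The smallest p-values were those of ERCC1, a subunit of the nuclease that cuts at crosslinks (0.64, limma adjusted p = 0.206), FAAP100, a core complex partner (0.53, adjusted p = 0.239), and MAD2L2, a subunit of polymerase zeta and shieldin (0.64, adjusted p = 0.277). All 3 were higher in every BORA tumour than in every EV tumour, as were 4.45% of all clusters. In the 11 measured end-joining genes 0 passed in limma. At an unadjusted p under 0.05 there were 2 in each comparison, both with lower values, which is 18.2%. Over all clusters 7.17% and 7.62% were lower at that level, and 14.5% and 15.3% in either direction. POLL, a gap-filling polymerase, and TDP1, which clears blocked ends, were lower in BORA tumours without overlap, as were 4.91% of all clusters (-0.59 and -0.42, limma adjusted p = 0.219 and 0.263). Mismatch repair (5 genes), excision repair (20 genes) and proliferation (26 genes) also had 0 past the threshold in limma in either comparison (at an unadjusted p under 0.05, 0, 0 and 1 over 8 arrays and 0, 1 and 2 over 7), with medians of 0.00098, 0.093 and 0.30 over 8 arrays and of -0.0019, 0.054 and -0.10 over 7.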

How the data were processed

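RNA of 8 xenograft tumours was measured on Affymetrix arrays, 1 array a tumour; groups and replicate numbers come from the labels. The deposited table holds log2 signals that the authors made with the software Affymetrix Expression Console (source: the submitters' processing notes), and its version, background correction, normalization and genome build were not given in the sources here. For this table the log base was read from the range of values. Row identifiers and annotation belong to a different Affymetrix human design than Human Gene 1.0 ST, the array named for the series. Gene symbols come from the annotation supplied with the series (17709 clusters, 20 symbols with several, where the brightest was taken).

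Each named cluster was tested with limma (lmFit and eBayes, R 4.3.3, limma 3.58.1), BORA minus EV, with Benjamini-Hochberg adjustment over all 17709 and a threshold of 0.05, over 8 arrays and over 7 without EV replicate 1. No filter was applied. The code was tested on simulated data. Members and lists were chosen with earlier results of these data known. Named members were the 10 with the smallest p in each comparison, the 5 farthest from the other EV tumours in EV replicate 1, and 8 measured genes of a fixed list; of other repair lists, genes with the smallest p. Alternatives were a replicate block, quantile and median scaling, trend with robust fitting, array weights, 2 filters, all 24351 rows, no moderation, 2 thresholds, mean of clusters and leaving out each array.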

Additional observations from a re-analysis of the deposited data

Results flagged for a closer look

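3 values stood far from the other 3 of their group, with a gap to the nearest, as a share of the group's range, above Dixon's 95% critical value. In EV replicate 1, CHEK1 was at 7.25 (others 9.18 to 9.52) and BRIP1 at 6.44 (others 7.71 to 7.89). In EV replicate 4, MUS81 was at 7.47 (others 7.13 to 7.15), the EV tumour nearest to the BORA tumours. By this measure chance marks about 1 in 20 groups. In EV tumours it marked 3 of 39 members, a share close to the 7.59% of all clusters marked there. In BORA tumours it marked 0 of 39 members and 5.43% of all clusters.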

How the results depend on the processing

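The count of members past the threshold was 0 under every alternative run, over 8 and over 7 arrays. Over 8 arrays BORA stayed past it under each alternative run, with a difference between 5.97 and 6.36 when single arrays were left out. Over 7 arrays without moderation no cluster passed, BORA included. The 2 filters on dim clusters tested 28 and 18 members over 8 arrays and 30 and 20 over 7. The median difference of the members ran from -0.13 to 0.15 over 8 arrays and from -0.16 to -0.082 over 7 when single arrays were left out. Of 827 values of the 22 named members under alternatives, 792 kept their direction and side of the threshold and 35 changed sign; the cause was not tested.

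Leaving out single arrays gave, over 8 arrays, differences of -0.64 to 0.056 for BRCA1, -0.40 to 0.38 for EXO1, -0.24 to 0.15 for RAD51C, -0.096 to 0.34 for FANCI, -0.017 to 0.24 for ATR, -0.029 to 0.42 for POLQ, -0.11 to 0.51 for MRE11 and -0.30 to 0.55 for XRCC2. Over 7 arrays they were -0.22 to 0.0058 for FANCI, -0.0044 to 0.30 for CHEK1, -0.18 to 0.17 for ATR, -0.37 to 0.30 for POLQ and -0.47 to 0.019 for XRCC2. Over 8 arrays EXO1 and RAD51C were at -0.0090 and -0.11 after quantile normalization and at -0.0016 and -0.035 after centring. Array weights gave -0.15 for EXO1, -0.11 for RAD51C, -0.017 for FANCI, -0.015 for POLQ and -0.047 for XRCC2. Over 7 arrays centring gave -0.045 for ATR.

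Deviations of same-numbered tumours from their group means correlated at -0.11, 0.039, 0.071 and -0.019, so the numbers were not taken to pair them. With the replicate number as a block, limma called 0 members, 1 cluster instead of 18 over 8 arrays, and 74 higher and 5 lower instead of 77 and 14 over 7. The medians of the members were 0.052 and -0.16, and over 7 arrays CHEK1 was at -0.0044 and ATR at -0.095. Without EV replicate 1, BORA replicate 1 is alone in its block and adds nothing to the difference. The median over 7 arrays is therefore the same as when BORA replicate 1 is left out, and shows no effect of blocking as such.

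Counts over all clusters moved more. Over 8 arrays they were 43 higher and 5 lower with array weights, 46 and 3 at a threshold of 0.1, 1 and 0 at 0.01 and 1 and 0 without moderation, and without single arrays between 1 and 77 higher. Over 7 arrays they were 203 and 74 at 0.1, 10 and 1 at 0.01, 40 and 5 with all rows tested and 0 and 0 without moderation (in the moderated test, 1363 higher and 1350 lower before adjustment at p under 0.05), and without single arrays between 24 and 106 higher.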
